A study of Rattus norvegicus with 8 samples.

Results

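The IL-7 receptor and the other receptor chains that pair with the common gamma chain were followed in rat thymocytes, the developing T cells of the thymus, together with the kinases Jak1 and Jak3 that these receptors use. The 10 genes were Il7r, Il2ra, Il2rb, Il2rg, Il4r, Il9r, Il15ra, Il21r, Jak1 and Jak3. They were chosen by name among the 35561 gene and transcript names of an Agilent Whole Rat Genome array, and 8 of them were found under their own name. Il4r was found under its older name Il4ra, which brought the number of measured genes to 9, with 11 probes. No probe carries the name Il15ra.

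Thymocytes came from adrenalectomized male Sprague-Dawley rats, so that both groups lacked adrenal hormones before the culture, and the thymi of 3 rats were pooled for each preparation. The culture lasted 6 hours. The Dex group of 4 arrays received 100 nM of dexamethasone and the Control group of 4 arrays did not, both in medium with fetal bovine serum. Dexamethasone is a synthetic glucocorticoid that kills immature thymocytes. The cells were not sorted, and the study states 3 biological replicates per group while 4 arrays per group were available and used here. Where nothing shows that arrays of a group came from separate preparations, p-values measure the spread between these arrays, which may be technical. The comparison of Dex with Control addresses which genes respond to glucocorticoid as the cells enter apoptosis.

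The common gamma chain, encoded by Il2rg, is shared by the receptors for IL-2, IL-4, IL-7, IL-9, IL-15 and IL-21. Each of these receptors adds a chain of its own that recognizes the cytokine, and the receptors for IL-2 and IL-15 also contain Il2rb. Jak3 binds the common gamma chain and Jak1 binds the partner chain, and together they phosphorylate STAT proteins. In the thymus IL-7 sustains the earliest thymocytes and the mature single positive cells, while most double positive thymocytes carry little IL-7 receptor. Il7r is known as a glucocorticoid-induced gene of T cells.

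The probes of 3 genes are shown because their Dex and Control arrays did not overlap. Each probe is 60 bases long and is written 5′ to 3′ as the array design gives it, in lower case with no part marked. Of the Jak3 probe the first 30 bases are given.
Il7r: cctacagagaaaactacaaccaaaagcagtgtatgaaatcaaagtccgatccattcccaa
Il21r: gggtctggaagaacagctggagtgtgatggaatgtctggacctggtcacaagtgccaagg
Jak3: aatcccctctggccacctcttcccatcatt

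On genome build rn3, which the scanner output names, the Il7r probe lies at chr2:59037161-59037220 on the minus strand. The Il21r probe lies at chr1:184842554-184842613 and the Jak3 probe at chr16:18889119-18889178, both on the plus strand. Annotation of that build was not used here, so exons and untranslated regions are not assigned. The transcripts that the array names for these probes are XM_226824 for Il7r, NM_001012469 for Il21r and NM_012855 for Jak3.

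All 11 probes were well above background on all 8 arrays by the scanner software's own flag. Values below are normalized log2 signals, on which a difference of 1 is a doubling. They show how one probe differs between arrays and do not rank one gene above another. An array had from 24911 to 34476 probes with that flag, and Dex 2, Dex 1 and Control 1 had the fewest. Control 1 and Dex 3 shared a slide that was scanned in a separate run from the other 6 arrays. Control 2, 3 and 4 shared a slide, and Dex 1, 2 and 4 shared another. Among those 6 arrays the effects of group and slide cannot be told apart.

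Of the 9 measured genes, 1 was called, Il7r, which was higher in Dex (limma, adjusted p of 0.05 or below over 41012 probes). On the whole array 0.563% of probes were called higher and 0.778% were called in either direction. In 3 genes all Dex arrays lay on one side of all Control arrays, against 9.11% of all probes. Il7r and Jak3 were on the higher side and Il21r on the lower side. The same 3 genes were called by the signal to noise statistic of the study's methods, which called 6.79% of all probes. They were also the genes with an unadjusted limma p under 0.05, a level that 10.6% of all probes reached. By sign 3 genes were higher and 6 were lower in Dex, and their median log2 change was -0.17 against 0.00 over all probes. With 9 genes these shares are a description and set nothing apart from the rest of the array.

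**Figure D1:**
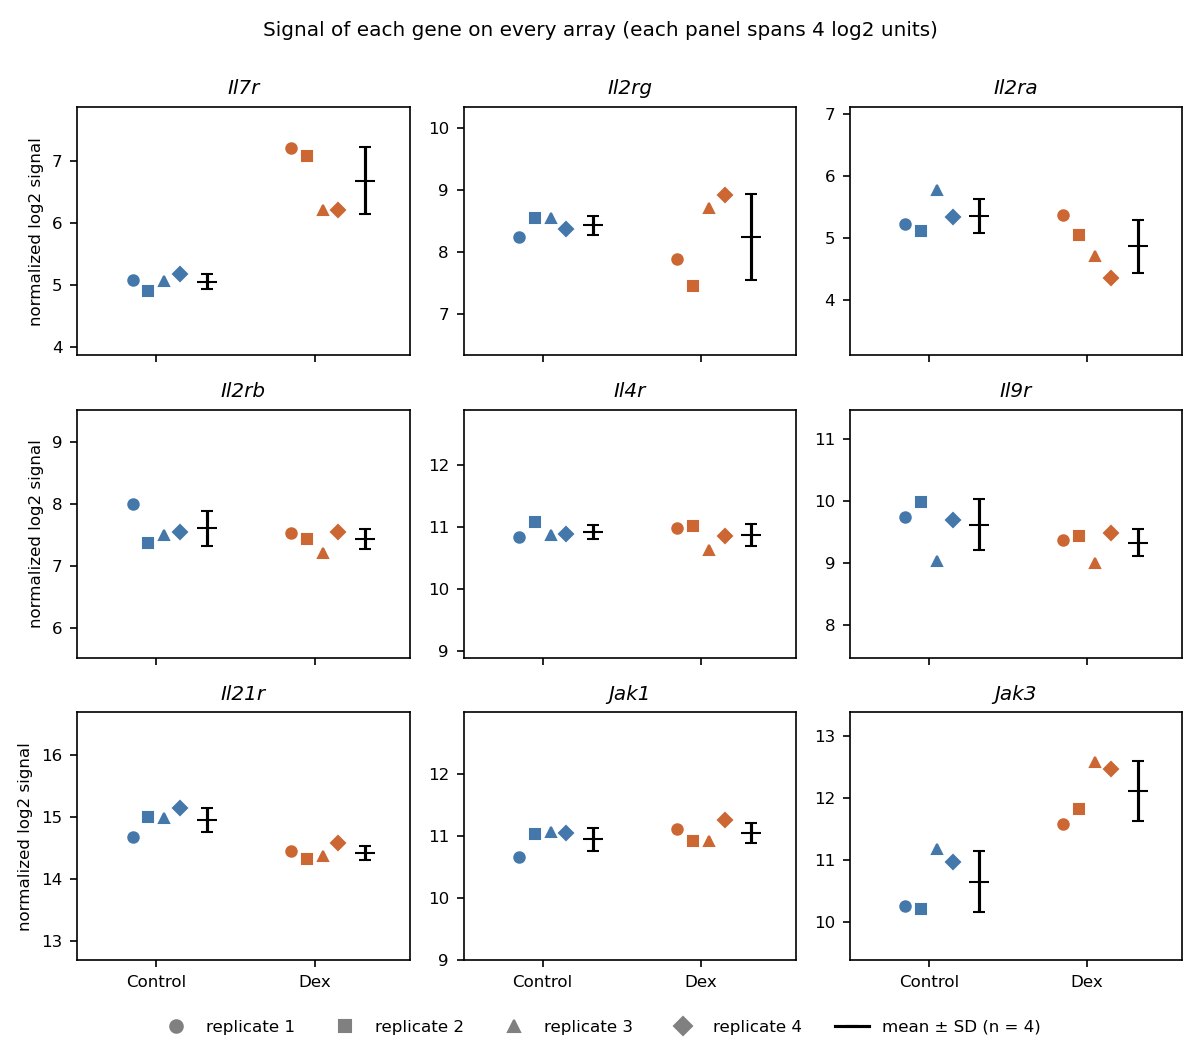
Normalized log2 signal (vertical axis) of the brightest probe of each of the 9 measured genes on the 4 Control and 4 Dex arrays; each panel spans 4 log2 units, each symbol is one array, and the bars are the mean ± SD. Il7r and Jak3 show all Dex arrays above all Control arrays, Il21r shows all of them below, and the groups of the other 6 genes overlap.

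Il7r encodes the alpha chain of the IL-7 receptor and is also part of the receptor for thymic stromal lymphopoietin. Its signal was 5.08, 4.90, 5.06 and 5.18 on Control arrays 1 to 4, and 7.20, 7.08, 6.21 and 6.21 on Dex arrays 1 to 4. The lowest Dex array was about a full log2 unit above the highest Control array. The mean rose from 5.05 ± 0.12 to 6.68 ± 0.54 (SD, n = 4 each). The log2 fold change was 1.62 (SE 0.27, 95% confidence interval 1.01 to 2.24, limma adjusted p = 0.041), which is a 3.08-fold rise (2.01 to 4.71).

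The Dex arrays of Il7r formed a higher and a lower pair. Dex 1 and Dex 2 averaged 7.14 and Dex 3 and Dex 4 averaged 6.21, whereas the Control arrays spanned 0.29. Dex 1 and Dex 2 had 26474 and 24911 probes well above background and Dex 3 and Dex 4 had 33287 and 33406, and the part of this difference in the Il7r signal was not tested. Within the same replicate number, Dex exceeded Control by 2.12, 2.18, 1.15 and 1.03 for numbers 1 to 4. Within the first scan run the difference was 1.78 (3 arrays per group, each group on its own slide). Within the second, on the shared slide, it was 1.14 (1 array per group).

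The call of Il7r rested close to its threshold. With the replicate number as a block the log2 fold change was the same 1.62 and the adjusted p was 0.16, and with 1 array left out at a time the call held in 1 of 8 fits, the one without Dex 3 (adjusted p 0.0462 to 0.172 over the 8). A normexp background correction lowered the log2 fold change to 0.75 (adjusted p = 0.038), with means of 6.95 in Control and 7.70 in Dex. This setting adds an offset of 50 to every signal, which shrinks the ratios of dim probes most. The same holds wherever normexp is named below, and the part of the offset in these changes was not tested.

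Il2rg encodes the common gamma chain itself. The array measures it with a probe designed on a clone sequence, AY325195, that the reference gene table lists under Il2rg. Its signal was 8.24, 8.55, 8.55 and 8.37 on Control arrays 1 to 4, and 7.88, 7.45, 8.71 and 8.91 on Dex arrays 1 to 4. Dex 1 and Dex 2 lay below every Control array and Dex 3 and Dex 4 lay above every Control array. The means of 8.43 ± 0.15 and 8.24 ± 0.69 (SD, n = 4 each) differed by -0.19 (SE 0.33, 95% interval -0.95 to 0.57, limma adjusted p = 0.887). That interval is too wide to settle the direction or size of any change in Il2rg. The pairs of Dex arrays that parted for Il7r also parted here, in the opposite order, with 7.66 for Dex 1 and Dex 2 and 8.81 for Dex 3 and Dex 4.

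Jak3 is the kinase that binds the common gamma chain. Its signal was 10.25, 10.21, 11.18 and 10.96 on Control arrays 1 to 4, and 11.58, 11.82, 12.58 and 12.46 on Dex arrays 1 to 4. Arrays 1 and 2 were lower than arrays 3 and 4 in both groups, and the groups did not overlap. The means were 10.65 ± 0.49 and 12.11 ± 0.48 (SD, n = 4 each), a log2 difference of 1.46 (SE 0.32, 95% interval 0.72 to 2.20) or 2.75-fold. This did not pass the threshold (limma unadjusted p = 0.00185, adjusted p = 0.114).

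Within replicate numbers the Jak3 difference was 1.33, 1.61, 1.40 and 1.50, higher in Dex in 4 of 4. With the replicate number as a block the SE fell to 0.15 and the adjusted p was 0.062, which is still above the threshold. The difference was 1.17 within the first scan run, where each group was on its own slide, and 2.33 within the second, on the shared slide.

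Jak1, the kinase on the partner chains, was measured by 2 probes. The brighter one gave 10.65, 11.02, 11.06 and 11.04 on Control arrays 1 to 4, and 11.10, 10.91, 10.91 and 11.25 on Dex arrays 1 to 4. The means of 10.94 ± 0.19 and 11.04 ± 0.16 differed by 0.10 (95% interval -0.28 to 0.48, limma adjusted p = 0.88). The other probe differed by 0.06 (95% interval -0.28 to 0.40, adjusted p = 0.927). Both intervals exclude a change of Jak1 as large as the fitted 1.46 of Jak3. The difference between the changes of Jak3 and Jak1 was not tested.

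Il21r encodes the IL-21 receptor, whose cytokine acts on B cells, NK cells and helper T cells. Its signal was 14.67, 15.00, 14.98 and 15.14 on Control arrays 1 to 4, and 14.44, 14.32, 14.37 and 14.57 on Dex arrays 1 to 4. Every Dex array was below every Control array, although Control 1 and Dex 4 were only 0.1 apart. The means of 14.95 ± 0.19 and 14.42 ± 0.11 (SD, n = 4 each) differed by -0.52 (SE 0.16, 95% interval -0.89 to -0.16), a 1.44-fold higher level in Control. It did not pass the threshold (limma unadjusted p = 0.0105, adjusted p = 0.261).

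Il4r encodes the IL-4 receptor alpha chain and is the neighbor of Il21r, with probes 55832 bases apart on rn3 chromosome 1. Its signal was 10.84, 11.08, 10.88 and 10.89 on Control arrays 1 to 4, and 10.98, 11.02, 10.63 and 10.86 on Dex arrays 1 to 4. The groups lay on top of each other. The difference of -0.05 between 10.92 ± 0.11 and 10.87 ± 0.18 had the narrow 95% interval of -0.40 to 0.31 (SD, n = 4 each, limma adjusted p = 0.943).

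Il2ra, the high affinity chain of the IL-2 receptor known as CD25, marks early thymocytes and regulatory T cells. Its brighter probe gave 5.23, 5.12, 5.77 and 5.34 on Control arrays 1 to 4, and 5.37, 5.05, 4.72 and 4.36 on Dex arrays 1 to 4. Its other probe gave 5.36, 5.23, 5.14 and 5.13 in Control and 5.35, 5.43, 3.86 and 4.00 in Dex. On both probes Dex 1 and Dex 2 lay near the Control arrays and Dex 3 and Dex 4 lay below all of them. The differences of -0.49 (95% interval -1.08 to 0.10, limma adjusted p = 0.575) and -0.55 (95% interval -1.44 to 0.33, adjusted p = 0.696) did not pass the threshold.

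Il2rb, the chain shared by the receptors for IL-2 and IL-15, is typical of NK and memory T cells. Its signal was 8.01, 7.38, 7.50 and 7.55 on Control arrays 1 to 4, and 7.53, 7.44, 7.21 and 7.56 on Dex arrays 1 to 4. Control 1 was the highest array and the other 7 were close together. The means of 7.61 ± 0.28 and 7.44 ± 0.16 differed by -0.17 (95% interval -0.60 to 0.25, limma adjusted p = 0.805).

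Il9r encodes the IL-9 receptor, which is best known in mast cells and some T cells. Its signal was 9.75, 9.99, 9.04 and 9.70 on Control arrays 1 to 4, and 9.38, 9.44, 9.01 and 9.48 on Dex arrays 1 to 4. Dex was lower than Control within each replicate number, by as little as -0.03 for number 3, and the groups overlapped. The means of 9.62 ± 0.41 and 9.33 ± 0.22 differed by -0.29 (95% interval -0.83 to 0.25, limma adjusted p = 0.729).

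Il15ra encodes the chain that presents IL-15 to neighboring cells. The array holds a predicted transcript, XM_344628, that its design describes as similar to the IL-15 receptor alpha chain, and it was not counted among the 9 genes. It was well above background on 2 arrays, with means of 2.50 ± 0.32 in Control and 3.15 ± 0.40 in Dex (SD, n = 4 each). The difference of 0.66 did not pass the threshold (limma adjusted p = 0.402).

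**Figure D2:**
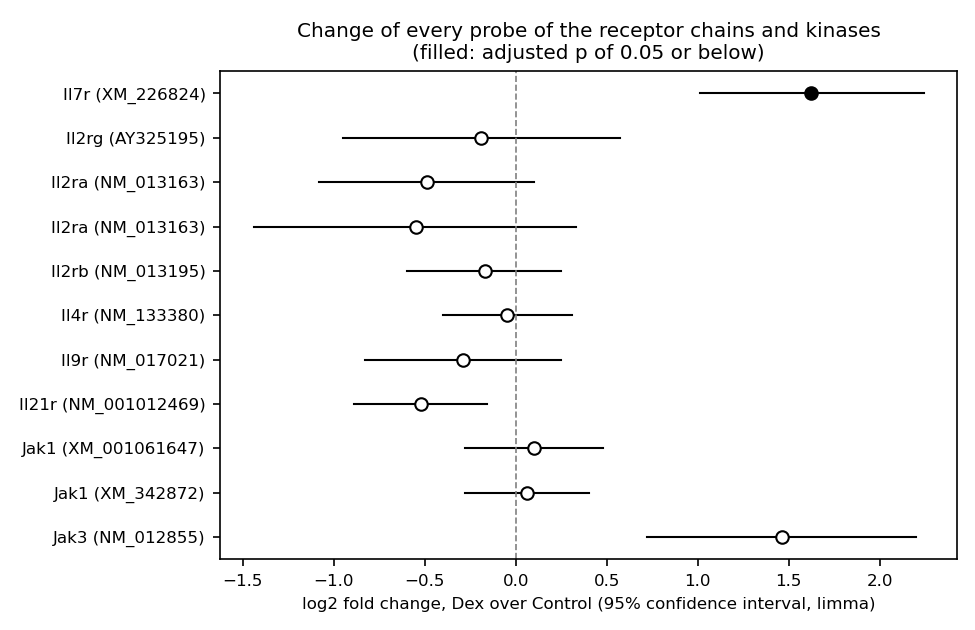
Log2 fold change of Dex over Control (horizontal axis) for each of the 11 probes, with the 95% confidence interval from limma; filled points passed an adjusted p of 0.05. The intervals of Il7r, Jak3 and Il21r lie clear of 0, and the filled Il7r point at 1.62 is the one that passed.

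The genes around the receptors were read from 6 lists, chosen by role and counted with the same fit. For each list the shares over all probes are 0.778% called by limma and 6.79% called by signal to noise. An unadjusted limma p under 0.05 was reached by 10.6% of all probes. Of the cytokines that bind these receptors, 6 of 7 were measured and 0 passed the limma threshold (1 had an unadjusted p under 0.05, and 0 passed by signal to noise), with a median log2 change of -0.03. Il15 had the largest difference, from 8.81 ± 0.28 to 8.01 ± 0.57, or -0.80 (SD, n = 4 each, limma unadjusted p = 0.0288, adjusted p = 0.388). Its groups narrowly did not overlap, with Control at 8.62 or more and Dex at 8.57 or less. Il15 was above background on 8 of 8 arrays. Il7, Il9 and Il21 were above background on 0 of 8 arrays, so their differences, among them 0.16 for Il9, have no weight.

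Among the signal transducers 14 of 15 were measured, 1 rose and 0 fell, with a median of -0.01 (2 had an unadjusted p under 0.05, and 1 was called by signal to noise). Pik3r1, the regulatory subunit of phosphoinositide 3-kinase, rose from 6.30 ± 0.18 to 7.48 ± 0.29, a log2 fold change of 1.17 (SE 0.19, SD with n = 4 each, limma adjusted p = 0.0409). With the replicate block its adjusted p was 0.168, and it was called in 0 of 8 fits with 1 array left out (adjusted p 0.0553 to 0.15). After normexp its log2 fold change was 0.68 (adjusted p = 0.0154). Stat5a and Stat5b, the transcription factors that IL-7 activates, differed by 0.27 (adjusted p = 0.656) and -0.04 (adjusted p = 0.951). Irs1, an adaptor of the IL-4 receptor, had the largest difference of the list at 2.33, between 2.65 ± 0.59 and 4.98 ± 1.51 (unadjusted p = 0.0106, adjusted p = 0.263), and was above background on 5 of 8 arrays. The related Irs2 had 1 of 4 probes called, while its brightest probe differed by -0.19 (adjusted p = 0.808).

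Among the inhibitors of receptor signaling 11 of 12 were measured, 1 rose and 0 fell, with a median of -0.12 (3 had an unadjusted p under 0.05, and 3 were called by signal to noise). Socs1, a feedback inhibitor of the JAK kinases and of IL-7 signaling, rose from 10.25 ± 0.08 to 11.37 ± 0.16, a log2 fold change of 1.12 (SE 0.15, SD with n = 4 each, limma adjusted p = 0.0165). With the replicate block its adjusted p was 0.121, and it was called in 3 of 8 fits with 1 array left out (0.0385 to 0.0869). With 75th percentile scaling it was 0.0982, and in the first scan run alone 0.126. Every Dex array of Socs1 was at 11.24 or more and every Control array at 10.35 or less. Cish, another feedback inhibitor and STAT5 target, differed by 0.56 (adjusted p = 0.643).

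Among the genes known to follow IL-7 or STAT5 in lymphocytes 12 of 13 were measured, 0 rose and 2 fell by limma, against 0.778% of all probes called, with a median of 0.05. By signal to noise 4 were called, against 6.79% of all probes, and 4 had an unadjusted limma p under 0.05, against 10.6%. Ccnd3, the D-type cyclin that drives thymocyte proliferation, fell by 1.59 on the log2 scale, from 12.62 ± 0.19 to 11.03 ± 0.11 (SE 0.16, SD with n = 4 each, limma adjusted p = 0.00506). Bcl2l1, which encodes the survival protein Bcl-xL of double positive thymocytes, fell by 1.04, from 12.84 ± 0.11 to 11.80 ± 0.14 (SE 0.15, SD with n = 4 each, adjusted p = 0.0232). With the replicate block the adjusted p was 0.0634 for Ccnd3 and 0.148 for Bcl2l1, and with 1 array left out they were called in 8 of 8 and 0 of 8 fits (Bcl2l1, 0.0555 to 0.112). With 75th percentile scaling neither passed (Ccnd3 0.0743, Bcl2l1 0.303), and neither did in the first scan run alone (0.0793 and 0.13). The Bcl2l1 probe was its brightest, and it was the 1 of the 4 Bcl2l1 probes that was called. The survival genes Bcl2 and Mcl1 and the kinase gene Pim1, which are also on the list, differed by 0.41, 0.19 and 0.01 (adjusted p = 0.71, 0.88 and 0.993). Hk2, a glycolytic enzyme, had means of 4.59 ± 0.16 and 5.52 ± 0.40 with no overlap, a difference of 0.93 (unadjusted p = 0.00299, adjusted p = 0.144). Cdkn1b, a cell cycle inhibitor, had means of 13.49 ± 0.16 and 12.98 ± 0.22 with no overlap, a difference of -0.52 (adjusted p = 0.32). Both were called by signal to noise and not by limma.

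All 12 of the transcription regulators known to act on Il7r were measured, and 0 passed the limma threshold (2 had an unadjusted p under 0.05), with a median of -0.10. By signal to noise 3 were called, Nr3c1, Runx1 and Lef1. Nr3c1, which encodes the glucocorticoid receptor, had means of 10.51 ± 0.11 and 11.33 ± 0.24, a difference of 0.81 (SD, n = 4 each, limma adjusted p = 0.0951). Runx1 had means of 13.03 ± 0.14 and 12.33 ± 0.15, a difference of -0.70 (adjusted p = 0.113). Foxo1, which activates Il7r in T cells, differed by 0.43 (adjusted p = 0.862), and Gfi1, which represses it, by 0.00 (adjusted p = 0.999).

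Other cytokine receptor chains made up the last list, of which 12 of 13 were measured and 0 passed the limma threshold (4 had an unadjusted p under 0.05), with a median of 0.21. By signal to noise 3 were called, Il13ra1, Ifngr1 and Ifngr2. Il12rb2 differed by 1.2 (adjusted p = 0.439) and Il13ra1 by 0.95 (adjusted p = 0.243). Crlf2, the chain that joins Il7r in the receptor for thymic stromal lymphopoietin, differed by -0.01 (adjusted p = 0.991).

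**Figure D3:**
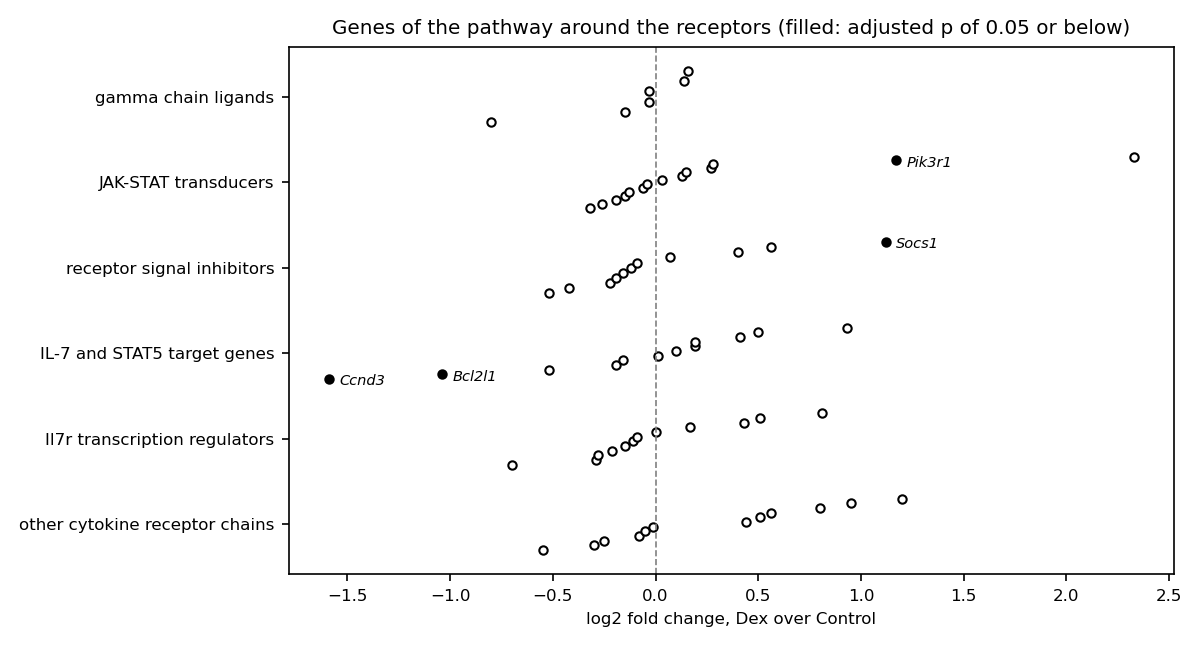
Log2 fold change of Dex over Control (horizontal axis) for the brightest probe of each measured gene in 6 lists around the receptors, 1 point per gene; filled and named points passed a limma adjusted p of 0.05. The 4 genes that passed are Pik3r1 and Socs1 to the right of 0 and Ccnd3 and Bcl2l1 to the left.

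Because the cells were not sorted, markers of the cell types present were read beside the receptors, and fewer cells of a type cannot be told apart from less RNA per cell. Signals were summed on the linear scale over the markers of a type and compared by an exact two-sided permutation test. This test ignores the pairing by replicate number, and its smallest possible p is 0.0286. Cd8b and Cd8a were the brightest of the 9 measured markers of double positive thymocytes, and Cd8b had no value on Control 1. Without Cd8b the sum of the other 8 ranged from 57500 to 70700 in Control and 54100 to 57000 in Dex, a change of the mean by -11.2% (exact p = 0.0286). With Cd8b, on the 7 arrays that hold it, the sum turned the other way, from 116000 to 145000 in 3 Control arrays and 143000 to 150000 in 4 Dex arrays, a change by 14.1% (exact p = 0.0571). Cd8b itself differed by 0.52 (limma adjusted p = 0.326). Ptcra, the pre-T cell receptor alpha chain, differed by -0.61 with no overlap (unadjusted p = 0.00341, adjusted p = 0.154, called by signal to noise). The recombinase genes Rag1 and Rag2 differed by -0.59 (adjusted p = 0.436) and -0.30 (adjusted p = 0.591), and Dntt by -0.44 (adjusted p = 0.598). The sum for mature thymocytes, led by Gimap5 and Itgb7, ranged from 34000 to 40200 in Control and 21600 to 26200 in Dex over 6 markers (exact p = 0.0286). None of these genes was called by limma, and Gimap5, the brightest of the mature markers, differed by -0.71 (adjusted p = 0.0826).

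Regulatory T cell markers, led by Tnfrsf18 and Tnfrsf4 and with Foxp3 above background on all arrays, summed to between 1530 and 1940 in Control and 1350 and 1690 in Dex over 4 markers (exact p = 0.314). Ctla4, an inhibitory receptor, differed by 0.88, between 6.63 ± 0.28 and 7.51 ± 0.53 (limma unadjusted p = 0.0145, adjusted p = 0.3), and Tnfrsf18 by -0.39 (adjusted p = 0.592). NK and cytotoxic markers, led by Prf1 and Nkg7, summed to between 3330 and 3790 and between 2480 and 5000 over 7 markers (exact p = 1.0). B cell markers, led by Blnk and Cd79b, summed to between 341 and 461 and between 226 and 566 over 4 markers (exact p = 0.971). The Dex arrays of both lists parted in the same pairs as those of Il7r and Il2rg. The NK sums of Dex 1 and Dex 2 were 2868 and 2476, below every Control array, and those of Dex 3 and Dex 4 were 4066 and 5003, above every Control array, the order seen for Il2rg. The B cell sums ran the other way, with 565.8 and 504.2 for Dex 1 and Dex 2 and 226.5 and 309.2 for Dex 3 and Dex 4, the order seen for Il7r.

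Macrophage and dendritic cell markers, led by Lyz and C1qb, summed to between 4450 and 6150 in Control and 4340 and 8780 in Dex over 9 markers (exact p = 0.343). Lyz made up most of that sum, and 3 dimmer markers had an unadjusted p under 0.05, all higher in Dex. Mrc1, the macrophage mannose receptor, had means of 3.97 ± 0.68 and 6.08 ± 0.67 with no overlap, a difference of 2.12 (SD, n = 4 each, limma unadjusted p = 0.00109, adjusted p = 0.087, called by signal to noise). The complement genes C1qc and C1qb differed by 0.97 (unadjusted p = 0.0182, adjusted p = 0.327) and 0.84 (unadjusted p = 0.0188, adjusted p = 0.33). Of the others, Cd14 differed by -0.77 (adjusted p = 0.556), C1qa by 0.72 (adjusted p = 0.634) and Cd163 by -0.24 (adjusted p = 0.925). Stromal and epithelial markers, led by Krt18 and Col1a1, summed to between 3190 and 5030 and between 4280 and 6280 over 8 markers (exact p = 0.343). In that list Pecam1, an adhesion molecule of endothelium and leukocytes, rose by 1.36 (limma adjusted p = 0.0208), and Pdgfra was above background on 0 arrays. The adjusted p of Pecam1 was 0.108 with the replicate block, 0.0629 with 75th percentile scaling and 0.0972 in the first scan run alone. It was called in 2 of 8 fits with 1 array left out (0.0259 to 0.0971), and its log2 fold change was 0.59 after normexp. Erythroid markers, led by Hbb and Alas2, summed to between 346 and 1400 and between 354 and 2520 over 3 markers (exact p = 0.4). The part of any of these cell types in the values of Il7r, Il2rg, Jak3 and Il21r was not tested.

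The 5 genes whose signal followed Il7r most closely over the 8 arrays were Alas1, Nfil3, Syngr2, Kcnh1 and Ppt1, among 6638 named genes well above background on all arrays. Their Pearson correlations with Il7r were 0.9966, 0.9941, 0.9923, 0.9876 and 0.9846. These values describe 8 arrays that share the group difference and the split of the Dex arrays, and the genes were picked for their correlation. Of them Kcnh1, a potassium channel gene, was called by limma at a log2 fold change of 2.26 (adjusted p = 0.0302). It did not pass with the replicate block (0.17), in the first scan run alone (0.131) or after normexp (0.89, adjusted p = 0.0506), and passed in 2 of 8 fits with 1 array left out (0.0416 to 0.134). Nfil3, a transcription factor gene, and Alas1, of heme synthesis, differed by 0.66 (adjusted p = 0.159) and 0.40 (adjusted p = 0.35).

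The promoter of Il7r is shown because Il7r is the gene that was called. It is the window of 300 bases around the start site that RefSeq gives on build GRCr8, at chr2:60204868-60205167 on the minus strand, written 5′ to 3′ in the direction of transcription. Capitals mark the letters GGAAGT of the ETS core as read on the opposite strand, at -69 from the start site.
Il7r promoter: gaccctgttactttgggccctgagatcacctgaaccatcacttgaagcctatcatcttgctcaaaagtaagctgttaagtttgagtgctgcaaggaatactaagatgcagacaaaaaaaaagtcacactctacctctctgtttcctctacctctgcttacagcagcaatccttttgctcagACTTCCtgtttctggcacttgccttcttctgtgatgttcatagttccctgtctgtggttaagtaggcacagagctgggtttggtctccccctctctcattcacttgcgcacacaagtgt

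Promoters of 7 of the 10 genes were in the reference table. The letters ACANNNTGT, from the glucocorticoid receptor element, were in 0 of the 7 and in 6.86% of all 33469 promoters. The letters TTCNNNGAA of the STAT5 element were in 0 of the 7 and in 8.87% of all promoters. GGAAGT was in 2 of the 7, Il7r and Il2ra, and in 22.6% of all promoters, and it was searched for after the Il7r sequence had been seen. Both strands were searched, and these letters describe the windows only.

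**Figure D4:**
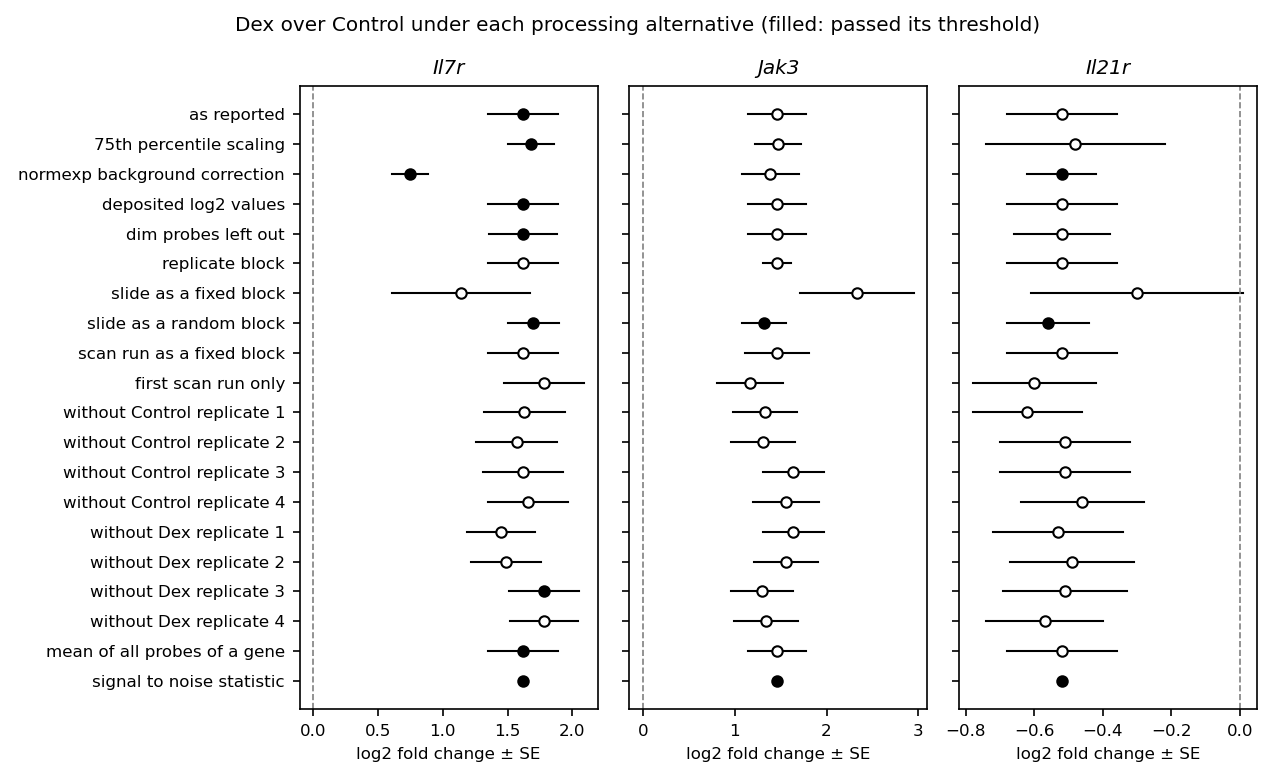
Log2 fold change of Dex over Control ± SE (horizontal axis) for Il7r, Jak3 and Il21r as reported and under each alternative processing (rows); filled points passed the threshold of that setting, and the signal to noise statistic has no SE. Il7r and Jak3 stayed above 0 and Il21r below 0 in all 19 alternatives, with 8, 2 and 3 of them passed.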

How the data were processed

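The authors hybridized Cy3-labeled RNA from Control and Dex cultures to 1-color Agilent arrays, 4 per group, and deposited the Feature Extraction (version 9.5.3.1) intensity of each spot, background-subtracted and not normalized between arrays, with 0 or 1 flags scored by the software. The authors also deposited log2 values, quantile normalized and summarized by median polish, which correlated at 0.99999901 or more with the values recomputed here by the same steps. Outlier spots were left out (16 missing values over 41012 probes). limma (version 3.58.1, R version 4.3.3) was fitted to all 8 arrays without a block, two-sided, and p-values were adjusted over all probes by Benjamini-Hochberg and called at 0.05.

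As an alternative test, the methods' signal to noise statistic was set against its values in all 70 array assignments, with probes pooled, and called at a nominal p of 0.01 and a fold change of 1.2. The brightest probe stands for a gene, and names come from the array with _predicted removed or from reference synonyms. Of each pathway list the called genes, or else the 2 with the largest change, are named, with some chosen for their role after their values were seen. Of each marker list the 2 brightest are named, and the 5 genes most correlated with Il7r. The members and lists were chosen with earlier results of these data known.

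Numbers were counted as pairing arrays. Deviations from the group means correlated at 0.397, 0.129, 0.55 and 0.184 between arrays of the same replicate number. The reported fit has no block, since the methods use none, and the fit with the replicate block is an alternative, given where it changes a call. The highest correlation with another number was 0.401, 0.188, 0.392 and 0.0698. For numbers 1 and 2 it was above the value for the same number, so these correlations do not settle the pairing. Alternatives changed the scaling, background correction, dim probes, blocks, probes per gene and arrays, and the scan run and a second marker sum were added after seeing the data. The number of arrays limits the precision.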

Additional observations from a re-analysis of the deposited data

Results flagged for a closer look

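Among 22 groups of 4 arrays, 2 for each of the 11 probes, 1 held an array that stood apart from the other 3. On the brighter Jak1 probe Control 1 was at 10.65 while Control 2, 3 and 4 lay between 11.02 and 11.06, and this gap made up 0.903 of the group's whole spread. Chance gives about 1 such group in 20. The other Jak1 probe also had its lowest Control value on Control 1, at 10.31 against 10.55 to 10.64.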

How the results depend on the processing

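Il7r kept its direction under all 19 alternatives and passed the threshold in 8 of them. These alternatives are not independent of the reported fit. The deposited values nearly equal the recomputed ones, and the mean of all probes of Il7r is its single probe. It did not pass with the replicate block (1.62, adjusted p = 0.16), with the slide as a fixed block (1.14, adjusted p = 0.771), with the scan run as a block (1.62, adjusted p = 0.076) or in the first scan run alone (1.78, adjusted p = 0.138), and with single arrays left out it ranged from 1.45 to 1.78. The slide as a fixed block rests on Control 1 and Dex 3 alone. The number of measured genes called was 1 as reported, 0 with the replicate block, the slide as a fixed block, the scan run as a block and the first scan run alone, 2 after normexp, 3 with the slide as a random block or by signal to noise, and 0 to 1 with single arrays left out. The number of probes called was 319 as reported, 166 with 75th percentile scaling, 915 after normexp (497 higher, 418 lower, against 231 and 88), 562 without dim probes, 81 with the replicate block, 1 with the slide as a fixed block, 1838 with it as a random block, 190 with the scan run as a block, 56 in the first scan run alone, 2784 by signal to noise, and 96 to 249 with single arrays left out. The filter tests fewer probes, left-out arrays leave fewer arrays, and the fixed blocks leave fewer residual degrees of freedom. The random slide block was fitted at an estimated correlation of -0.235, and for it and the other settings the cause was not tested. Signs turned only in genes that were not called: Il2rg was 0.47 with the slide as a fixed block and ranged from -0.42 to 0.07 (without Dex 2) with single arrays left out, Il2rb was 0.03 in the first scan run alone, and Il4r was 0.01 in the first scan run alone and ranged from -0.10 to 0.04 with single arrays left out (0.01 without Control 2, 0.04 without Dex 3). Jak3 passed in 2 alternatives (adjusted p 0.022 to 0.771) and Il21r in 3 (0.0454 to 0.776), for both including the random slide block. The fitted change of Jak3 was above that of Il7r after normexp (1.39 against 0.75) with the slide as a fixed block (2.33 against 1.14), without Control 3 (1.64 against 1.62), without Dex 1 (1.64 against 1.45) and without Dex 2 (1.56 against 1.49). The double positive marker sum turned from -11.2% to 14.1% with Cd8b. With the replicate block Il7r and the other called genes named above (Pik3r1, Socs1, Ccnd3, Bcl2l1, Pecam1 and Kcnh1) did not pass, nor did these with the slide as a fixed block or in the first scan run alone, and none of the other 8 measured genes changed its call.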
